A study of Mus musculus with 16 samples.

Results

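The receptor dependence of the interleukin-4 (IL-4) response was measured as a difference of differences over the 16 arrays of the study and all 25697 probes. For each probe, the change with IL-4 (mean of the IL-4 arrays minus mean of the vehicle arrays, on the log2 scale) was taken in each genotype, and the knockout change was subtracted from the wild-type change. A positive difference therefore means a change that was higher in wild type. The cells were fibro/adipogenic progenitors (FAPs), mesenchymal cells of skeletal muscle with fibroblast and adipocyte potential, taken from Balb/cJ mice and studied after plating in culture. The 4 groups, with 4 arrays each, were IL4RA -/- cells (called knockout here) given recombinant IL-4, IL4RA -/- cells given vehicle, wild-type cells given recombinant IL-4 and wild-type cells given vehicle. The series describes the arrays of a group as biological replicates. Both knockout groups were numbered 1 to 4, whereas in wild type the vehicle arrays were numbered 1 to 4 and the IL-4 arrays 5 to 8. In wild type, the change with IL-4 therefore cannot be told apart from a difference between those sets of replicates. The dose and duration of IL-4, the sex and age of the mice, how the allele was made and the chip that carried each array are not given in the sources used here. No probe carried the name of the deleted receptor gene Il4ra, and the targeted gene could not serve as a check of the labels.

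IL-4 binds the IL-4 receptor alpha chain, which pairs with the common gamma chain (Il2rg) in the type I receptor or with Il13ra1 in the type II receptor, which also binds interleukin-13. Both receptors act through Jak kinases, which phosphorylate the transcription factor STAT6, and the alpha chain also recruits insulin receptor substrate proteins that feed PI3K, a lipid kinase of growth signalling. Because both receptors contain the alpha chain, the comparison asks which changes are missing from cells without it, and how much of each.

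Values ran from 7.72 to 14.77 on a scale read as log2, and every array had the same distribution (median 7.85). Within 0.15 of the lowest value, where changes are compressed, lay 57% of the probes. Arrays of 1 group correlated at 0.9943 to 0.9976. On the first principal component, with 60.3% of the variance, wild-type IL-4 arrays lay at 18.71 to 20.81 and the other 12 between -8.15 and -4.10. Knockout vehicle arrays 2 and 3 stood apart from the other knockout arrays on the third component (-6.95 and -7.52, with 5.39% of the variance). In these bulk samples fewer cells of a type and less RNA per cell cannot be told apart.

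In wild-type FAPs a large set of genes differed between IL-4 and vehicle arrays, while their knockout change was close to 0. Among probes with a gene name, the largest positive differences were those of Car4, a membrane-anchored carbonic anhydrase, Daglb, a lipase that makes an endocannabinoid, and Ccl11, the eosinophil attractant eotaxin. Itga11, a collagen-binding integrin subunit, and Dio3, which inactivates thyroid hormone, had the largest negative ones. Of all probes, 1 without a gene name here ranked second by size (3.581), above Daglb, and another (3.160) lay above Ccl11. The difference passed an adjusted p of 0.05 (limma with Benjamini-Hochberg adjustment over all probes) for 2156 probes, or 8.39% of those tested. Of these, 1038 (4.04%) were positive and 1118 (4.35%) negative. The median size of a passing difference was 0.33, 69 positive and 20 negative differences reached 2-fold, and 209 and 144 reached 1.5-fold. With 1 probe per gene, the brightest, 1663 of 16593 genes passed (10.0%), 788 of them positive (4.75%) and 875 negative (5.27%).

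The components of the difference were unequal. Among the 1038 positive probes the median change was -0.015 in the knockout and 0.33 in wild type, and among the 1118 negative probes it was 0.021 in the knockout and -0.295 in wild type. Tested alone, the knockout change passed for 0 of 25697 probes (0.00%), with a smallest limma adjusted p of 0.288, and the wild-type change passed for 3510 (13.7%). At an unadjusted p under 0.05 the knockout change counted 1439 probes (5.60%), and limma with a trended and robust variance called 1. The 4 wild-type IL-4 arrays all lay above the other 12 for 1115 probes (4.34%) and all below for 1061 (4.13%). Of the passing probes 833 lay above in this way and 698 below. The knockout and wild-type changes share no array, but the difference is made from both and is not independent of either.

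**Figure D1:**
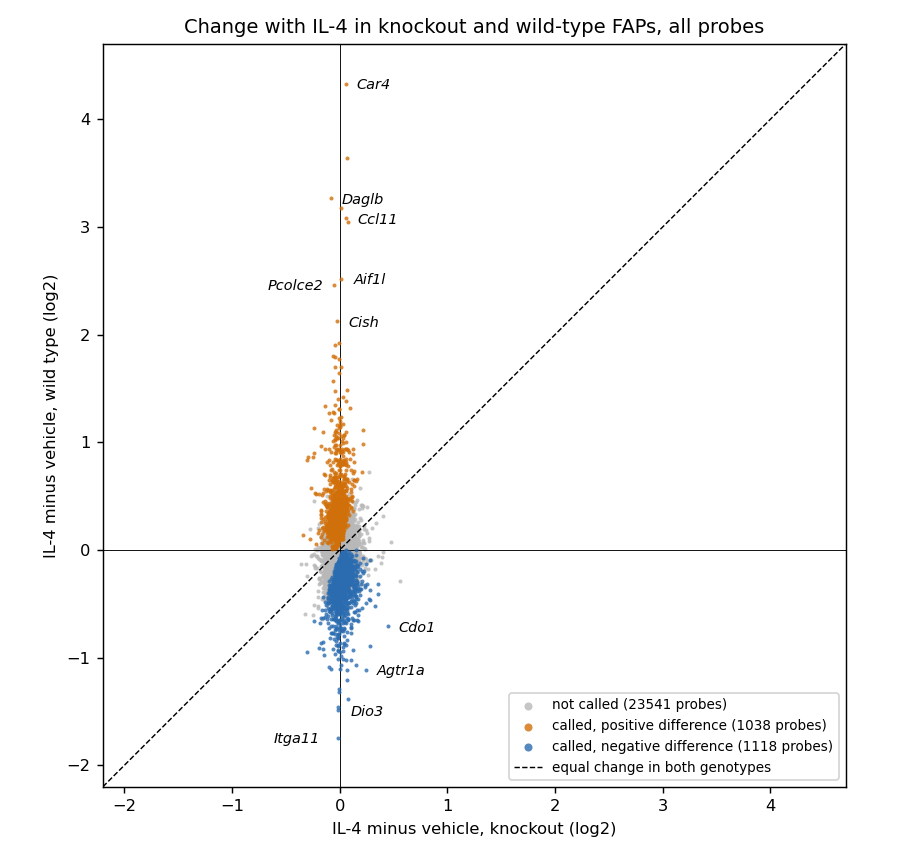
Change with IL-4 in the knockout (x axis, log2) against the change in wild type (y axis, log2), 1 point per probe, 25697 probes. Orange and blue points passed with a positive (1038) and a negative (1118) difference of changes, grey points did not pass, and the dashed line marks equal changes. Points spread along the wild-type axis, with Car4 at 0.05 and 4.33.

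The 20 genes with the largest positive differences lay between 1.39 and 4.28, and for each of them the 4 wild-type IL-4 arrays were above the other 12. Car4 read 7.84, 7.86, 7.83 and 7.85 in knockout IL-4 arrays and 7.79, 7.79, 7.79 and 7.78 in knockout vehicle arrays, against 11.95, 12.07, 12.26 and 12.25 in wild-type IL-4 arrays and 7.79, 7.81, 7.82 and 7.78 in wild-type vehicle arrays. Its change was 0.05 in the knockout (95% confidence interval -0.05 to 0.16) and 4.33 ± 0.05 in wild type (SE), or 1.04-fold and 20.1-fold, and the difference was 4.28 ± 0.07 (limma adjusted p = 2.52e-14). Car4 lay near the array minimum in every group other than wild-type IL-4, so the fold depends on that floor. The 4 knockout IL-4 arrays lay just above the 4 knockout vehicle arrays, a separation of knockout groups that 723 of all probes (2.81%) showed.

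Daglb read 8.95, 8.98, 9.0 and 8.98 in knockout IL-4 arrays and 9.0, 9.24, 9.01 and 8.99 in knockout vehicle arrays, against 11.98, 12.42, 12.47 and 12.55 in wild-type IL-4 arrays and 9.06, 9.12, 8.99 and 9.18 in wild-type vehicle arrays. The change was -0.09 in the knockout (interval -0.29 to 0.12) and 3.27 ± 0.10 in wild type (SE), and both Daglb probes passed with a difference of 3.35 ± 0.14 for the one given here (limma adjusted p = 7.3e-10). The knockout groups overlapped, with knockout vehicle array 2 above the other knockout arrays. Ccl11 stood at 9.57, 9.80, 9.75 and 9.83 in knockout IL-4 arrays and 9.65, 9.68, 9.78 and 9.58 in knockout vehicle arrays, against 12.54, 12.67, 12.30 and 12.56 in wild-type IL-4 arrays and 9.23, 9.34, 9.59 and 9.58 in wild-type vehicle arrays. Its change was 0.06 in the knockout (interval -0.13 to 0.26) and 3.08 ± 0.09 in wild type (SE), with a difference of 3.02 ± 0.13 (limma adjusted p = 1.34e-09), so the wild-type level rose 8.46-fold while the knockout groups overlapped. Its second and brighter probe gave 2.97 ± 0.13.

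Pcolce2 gave 8.22, 8.15, 8.25 and 8.10 in knockout IL-4 arrays and 8.22, 8.27, 8.19 and 8.24 in knockout vehicle arrays, against 10.85, 10.80, 10.79 and 10.81 in wild-type IL-4 arrays and 8.37, 8.32, 8.42 and 8.28 in wild-type vehicle arrays. Pcolce2, which enhances the trimming of procollagen, changed by -0.05 in the knockout and 2.47 in wild type (difference 2.52 ± 0.05, limma adjusted p = 9.88e-14), and its groups overlapped in the knockout only. For Aif1l, an actin-binding protein, the changes were 0.01 in the knockout and 2.52 in wild type. Cish was at 8.74, 8.76, 8.73 and 8.80 in knockout IL-4 arrays and 8.75, 8.73, 8.77 and 8.88 in knockout vehicle arrays, against 11.04, 11.05, 11.08 and 11.09 in wild-type IL-4 arrays and 8.95, 8.93, 8.88 and 9.02 in wild-type vehicle arrays. Cish, a STAT-induced inhibitor of cytokine receptor signalling, changed by -0.02 in the knockout (interval -0.09 to 0.05) and 2.12 ± 0.03 in wild type (SE), with a difference of 2.15 ± 0.05 (limma adjusted p = 2.5e-13). Il13ra2 had values of 7.88, 7.89, 7.89 and 7.89 in knockout IL-4 arrays and 7.89, 7.85, 7.93 and 7.92 in knockout vehicle arrays, against 9.55, 9.70, 9.61 and 9.58 in wild-type IL-4 arrays and 7.83, 7.83, 7.85 and 7.85 in wild-type vehicle arrays. Il13ra2, the decoy receptor for interleukin-13, changed by -0.01 in the knockout and 1.77 in wild type, and its 12 other arrays were near the array minimum.

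The remaining positive differences fell into several kinds of gene. Secreted or matrix proteins were Serpina3n, a serine protease inhibitor (1.95), Edn1, the precursor of the vasoconstrictor endothelin-1 (1.93), the collagen VI chain Col6a2 (1.74), Igfbp5, which binds insulin-like growth factors (1.69), and Plau, the urokinase plasminogen activator (1.52). Vehicle levels already differed, by 0.73 for Serpina3n and -0.44 for Col6a2 (knockout minus wild type). Mylk, the myosin light chain kinase that drives smooth-muscle-type contraction, differed by 1.86, and Rgs16, which shortens G-protein signals, by 1.47. Enzymes of lipids and glycans were Smpd3, a sphingomyelinase (1.65), the phosphoinositide kinase Pip4k2a (1.42) and Hs3st1, which sulfates heparan sulfate (1.42). Prc1 (1.63), Cenpa (1.39) and Anln (1.39) act in mitosis and cytokinesis. Limma adjusted p-values of the 20 genes were at most 2.79e-06. In all 20 the knockout interval included 0, and the outer end of that interval was between 3.12% of the wild-type change for Aif1l and 22.6% for Rgs16. Of the 5 with several probes, Anln had 1 of 3 probes passing and the other 4 had all.

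**Figure D2:**
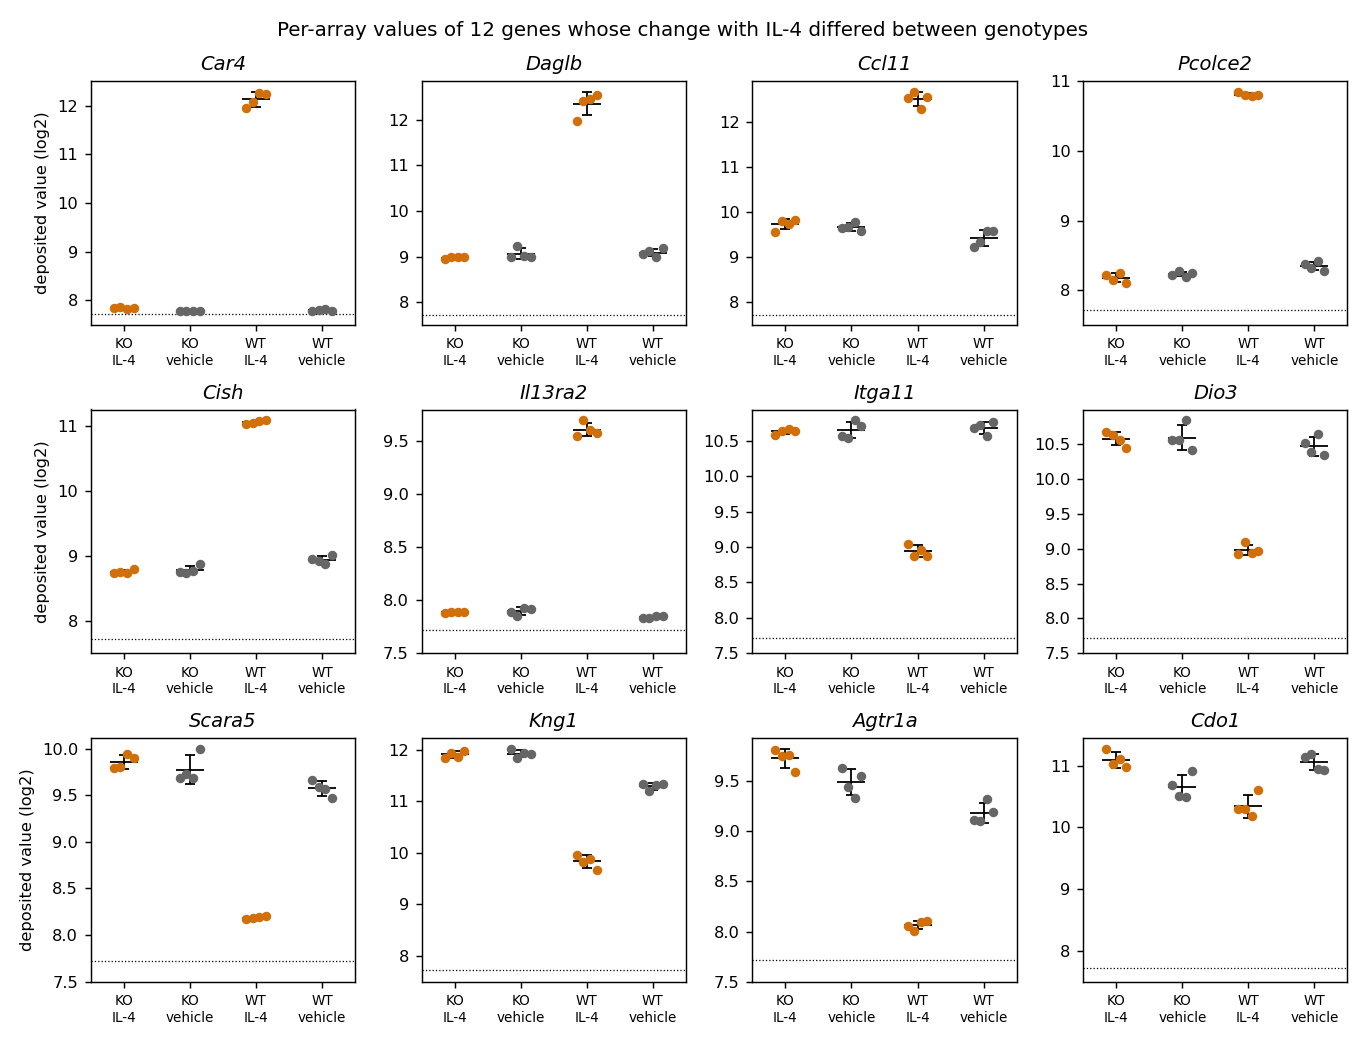
Deposited log2 value of each array (points) with the group mean and SD (bars, n = 4) for 6 genes with large positive and 6 with large negative differences. The dotted line is the array minimum of 7.72. The 4 wild-type IL-4 arrays stand alone in each panel except Cdo1, where they overlap with the knockout vehicle arrays. In the Car4 and Cdo1 panels the knockout IL-4 arrays all lie above the knockout vehicle arrays.

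The regions before the start sites of 4 of these genes are shown because they bear on where STAT proteins could act, whose binding sites hold TTC and GAA set 3 or 4 bases apart. The sequences are the 250 bases before the first listed start in RefSeq on GRCm38.p6, 5′ to 3′ on the gene's strand, and capitals mark such a pair 3 or 4 bases apart, on either strand since the motif is its own reverse complement. Car4 lies at chr11:84957504-84957753 (+ strand), Pcolce2 at chr9:95637378-95637627 (+), Cish at chr9:107296409-107296658 (+) and Itga11, the gene with the largest negative difference, at chr9:62677605-62677854 (+).
Car4: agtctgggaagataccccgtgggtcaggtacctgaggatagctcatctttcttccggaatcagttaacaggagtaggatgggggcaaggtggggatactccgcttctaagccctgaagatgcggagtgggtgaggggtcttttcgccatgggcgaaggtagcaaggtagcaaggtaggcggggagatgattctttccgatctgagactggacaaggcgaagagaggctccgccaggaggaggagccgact
Pcolce2: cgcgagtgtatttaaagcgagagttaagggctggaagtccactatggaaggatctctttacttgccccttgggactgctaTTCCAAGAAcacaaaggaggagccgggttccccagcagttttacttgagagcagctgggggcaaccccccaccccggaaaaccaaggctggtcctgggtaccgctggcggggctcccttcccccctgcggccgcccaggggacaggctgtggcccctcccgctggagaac
Cish: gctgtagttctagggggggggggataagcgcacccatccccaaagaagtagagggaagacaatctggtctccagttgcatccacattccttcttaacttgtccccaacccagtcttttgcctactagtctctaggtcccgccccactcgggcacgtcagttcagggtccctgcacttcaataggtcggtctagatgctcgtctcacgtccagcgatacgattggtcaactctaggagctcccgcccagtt
Itga11: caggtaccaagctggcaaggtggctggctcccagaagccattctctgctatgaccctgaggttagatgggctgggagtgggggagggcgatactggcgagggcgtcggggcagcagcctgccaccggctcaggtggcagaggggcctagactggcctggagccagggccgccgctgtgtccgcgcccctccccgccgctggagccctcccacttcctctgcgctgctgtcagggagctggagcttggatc
Of the 4 windows only that of Pcolce2 held a match, with a gap of 3 bases, starting at position -170, where -1 is the base before the start. The windows of Daglb, Aif1l, Il13ra2 and Dio3, which were also read and are not printed, held none. RefSeq promoter entries matched 13336 of the 16593 measured genes and 29 of the 40 genes with the largest differences, and Ccl11 was not among these. The pair with a gap of 4 bases, the spacing STAT6 prefers, was present in 5.34% of all 13336 windows, in 5.24% of the 668 genes with a positive call and in 4.75% of the 779 with a negative call. At 1.5-fold or more the shares were 3.85% of 130 and 6.38% of 94 genes. With a gap of 3 bases they were 6.76% of all genes, 4.62% of the 130 and 10.6% of the 94 (Wilson 95% interval 5.88% to 18.5%). A match is a description of letters and no site, and a window without one says nothing about binding elsewhere.

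Negative differences were smaller, between -1.73 and -0.99 for the 20 largest, and the wild-type IL-4 arrays lay below the other 12 in 19 of them. Itga11 read 10.59, 10.64, 10.67 and 10.64 in knockout IL-4 arrays and 10.57, 10.54, 10.79 and 10.71 in knockout vehicle arrays, against 9.05, 8.87, 8.96 and 8.88 in wild-type IL-4 arrays and 10.68, 10.73, 10.57 and 10.76 in wild-type vehicle arrays. The change was -0.02 in the knockout (interval -0.14 to 0.10) and -1.74 ± 0.06 in wild type (SE), which gave a difference of -1.73 ± 0.08 (limma adjusted p = 3.11e-09, 2 of 3 probes). Dio3 stood at 10.67, 10.63, 10.56 and 10.45 in knockout IL-4 arrays and 10.56, 10.56, 10.84 and 10.41 in knockout vehicle arrays, against 8.92, 9.09, 8.94 and 8.97 in wild-type IL-4 arrays and 10.51, 10.38, 10.64 and 10.34 in wild-type vehicle arrays. Its changes were -0.02 in the knockout and -1.49 in wild type, and again only the wild-type IL-4 arrays left the common range.

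Scara5, Lyz1, Lyz2, Cd1d1 and the kininogens were also among the 20 largest negative differences. Scara5 gave 9.79, 9.80, 9.94 and 9.90 in knockout IL-4 arrays and 9.68, 9.73, 9.69 and 10.00 in knockout vehicle arrays, against 8.17, 8.18, 8.19 and 8.21 in wild-type IL-4 arrays and 9.66, 9.59, 9.57 and 9.47 in wild-type vehicle arrays. Scara5, a scavenger receptor that binds ferritin, changed by 0.08 in the knockout and -1.39 in wild type (difference -1.47 ± 0.09, limma adjusted p = 4.15e-08). Lyz1 (-1.31) and Lyz2 (-1.22) encode lysozymes, and Cd1d1 (-1.06) presents lipid antigens. Kng1 was at 11.84, 11.94, 11.86 and 11.98 in knockout IL-4 arrays and 12.01, 11.83, 11.93 and 11.92 in knockout vehicle arrays, against 9.96, 9.82, 9.88 and 9.67 in wild-type IL-4 arrays and 11.33, 11.19, 11.32 and 11.33 in wild-type vehicle arrays. Kng1, a kininogen from which bradykinin is cut, changed by -0.02 in the knockout and -1.46 in wild type, and its vehicle levels already differed, by 0.63 (knockout minus wild type). Kng2, the related kininogen, differed by -1.05, and its vehicle levels by 0.53 (knockout minus wild type).

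Growth regulators and metabolic enzymes made up most of the others. Cdkn1c, an inhibitor of cyclin-dependent kinases, differed by -1.29, Igfbp4 by -1.18, the growth factors Bmp4 and Mdk by -1.11 and -1.0, and the secreted proteins Angptl7 and Smoc1 by -1.28 and -1.08. The vehicle level of Angptl7 was already 0.57 higher in the knockout than in wild type. Gpat3, which starts glycerolipid synthesis, differed by -1.13, the alcohol dehydrogenase Adh1 by -0.99, Tmem86a by -1.03 and Col18a1, a basement membrane collagen, by -0.99. Limma adjusted p-values of the 20 were at most 0.000796, and the knockout interval included 0 in 17. The 3 others, Agtr1a, Lyz2 and Cdo1, had a knockout change above 0 before adjustment for multiple tests. Of the 10 negative genes with several probes, 3 had all of them passing. Lyz1 passed with 1 of 3 probes, Kng2 with 1 of 2, Mdk with 2 of 4, and Kng1, Lyz2 and Col18a1 with 2 of 3 each.

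Agtr1a read 9.81, 9.75, 9.76 and 9.59 in knockout IL-4 arrays and 9.63, 9.44, 9.33 and 9.55 in knockout vehicle arrays, against 8.06, 8.01, 8.09 and 8.10 in wild-type IL-4 arrays and 9.11, 9.10, 9.32 and 9.19 in wild-type vehicle arrays. Agtr1a, a receptor for angiotensin II, changed by 0.24 in the knockout (interval 0.11 to 0.38) and -1.12 in wild type, and its knockout groups overlapped. Cdo1 stood at 11.27, 11.02, 11.11 and 10.98 in knockout IL-4 arrays and 10.69, 10.51, 10.49 and 10.92 in knockout vehicle arrays, against 10.29, 10.29, 10.18 and 10.60 in wild-type IL-4 arrays and 11.14, 11.19, 10.95 and 10.93 in wild-type vehicle arrays. Cdo1, the cysteine dioxygenase, changed by 0.45 in the knockout (interval 0.22 to 0.67) and -0.71 ± 0.11 in wild type (SE), so part of its difference of -1.16 came from the knockout arrays. All 4 knockout IL-4 arrays lay above the 4 knockout vehicle arrays, and the wild-type IL-4 arrays overlapped with the knockout vehicle arrays.

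How much response was left without the receptor was bounded over the 80 probes whose wild-type change passed and was at least 2-fold. Their median size of change was 0.039 in the knockout and 1.208 in wild type. The knockout interval lay within 25% of the wild-type change for 74 of the 80 probes (92.5%) and within 50% for 80 (100%), and it included 0 for 77. Most probes of the array had such an interval, since 5.60% of all had an unadjusted limma p under 0.05 in the knockout. For the 343 probes past 1.5-fold it lay within 25% for 195 (56.9%) and within 50% for 322 (93.9%). Over all 3510 probes that passed in wild type these shares were 9.34% and 39.1%, since the median half-width of a knockout interval, 0.095, is large against a median wild-type change of 0.24. The slope of the knockout change on the wild-type change was -0.0061 over the 80 probes and 6e-04 over the 3510, with Pearson r = -0.151 and 0.005 across probes, which are not independent. The bound is therefore tight for large changes and loose for small ones.

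A score averaged the 80 probes on each array after turning the falling ones round, as the distance from the vehicle mean of the same genotype. It was -0.0216, -0.0021, -0.0165 and -0.0244 on knockout IL-4 arrays and between -0.0094 and 0.008 on knockout vehicle arrays. On wild-type IL-4 arrays it was 1.4187, 1.4939, 1.4594 and 1.4693, and between -0.0101 and 0.0072 on wild-type vehicle arrays. The probes were chosen on the wild-type arrays, so their wild-type score describes that choice, while the knockout arrays entered it through the variance that the fit pools over all 16 arrays and not through the change itself. The knockout IL-4 arrays all lay below 0, with a mean of -0.016 ± 0.010 (SD, n = 4). Only the array at -0.0021 was within the range of the vehicle arrays, and the others lay below it.

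**Figure D3:**
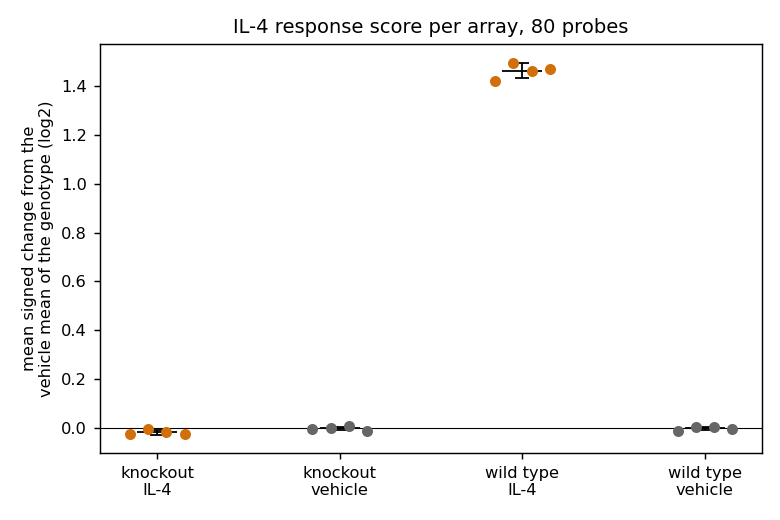
IL-4 response score per array (y axis, mean signed log2 distance from the vehicle mean of the same genotype over 80 probes) in the 4 groups, with group mean and SD (n = 4). Knockout IL-4 arrays lie between -0.0244 and -0.0021 and wild-type IL-4 arrays between 1.4187 and 1.4939.

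Gene lists were read against all 16593 genes, of which 4.75% had a positive and 5.27% a negative difference (10.0% in all). Only 4858 of these genes lay more than 0.5 above the array minimum, where 19.4% to 30.9% of probes passed by brightness class. Lists differed in this, with 23 of 27 respiratory chain, 15 of 15 ribosomal, 17 of 23 fibrillar collagen and 17 of 21 lipid droplet genes above 0.5. In the mitotic list 13 of 38 were. The share of all genes is therefore a low yardstick for lists of bright genes. Among genes of the receptor and its proximal signalling, 0 of 22 measured passed with a positive and 2 with a negative difference (9.09%, near the share of all genes), and the median difference was 0.006, against -0.001 over all genes. The 2 were the adaptor Shc1 (-0.43 ± 0.07, SE, limma adjusted p = 0.000566, 1 of 4 probes) and Pik3r1, a regulatory subunit of PI3K (-0.43 ± 0.09, adjusted p = 0.00525). Pik3r1 changed by -0.24 in the knockout (interval -0.37 to -0.10) and -0.66 in wild type, so its level was lower with IL-4 in both genotypes before adjustment. Stat6 itself changed by -0.07 in the knockout and 0.12 in wild type (difference 0.20 ± 0.06, limma adjusted p = 0.0829), and that p was 0.0224 to 0.0479 under 6 alternatives, among them a variance trend and omission of knockout vehicle array 3 or 4. Il13ra1 (0.06), Jak1 (-0.09) and Jak3 (0.02) did not pass either, and Il2rg was not measured under that name.

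Of 21 feedback inhibitors measured, 4 passed with a positive difference and 1, the SUMO ligase Pias1 (-0.25), with a negative one (23.8%), and the median was 0.024. Cish and Il13ra2 led them. Socs2, another STAT-induced inhibitor, differed by 0.43 ± 0.11 (SE, limma adjusted p = 0.0209). Without knockout vehicle arrays 2 and 3 the limma adjusted p was 0.0797 for Socs2 and 0.0544 for Pias1, and the list counted 2 positive and 0 negative. Pias1 was also lost with the array minimum subtracted (adjusted p = 0.103). Socs1 (0.07, adjusted p = 0.244) and Socs3 (-0.02, 0.948), which inhibit Jak kinases, did not pass in limma.

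Genes that mark alternative activation of macrophages were mostly at the array minimum. Of 25 measured, 3 passed with a positive and 1 with a negative difference (16%, median 0.006). Rnase2a, listed as the eosinophil-associated ribonuclease Ear11, changed by -0.002 in the knockout and 1.31 in wild type, with all 4 wild-type IL-4 arrays (9.06 to 9.30) above the other 12 (7.89 to 7.98). Ppargc1b, a coactivator of oxidative metabolism, differed by -0.47. Arg1 (0.01), Retnla (0.03) and Ccl24 (0.02) lay close to the minimum in every group and did not pass.

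Of 26 chemokines measured, 4 had a positive and 3 a negative difference (26.9%, median 0.002), and without knockout vehicle arrays 2 and 3 the negative count was 5. Ccl2, which attracts monocytes, changed by 0.02 in the knockout and 0.92 in wild type (difference 0.90 ± 0.17, SE, limma adjusted p = 0.00275). It stood at 9.64 to 10.17 in knockout IL-4 arrays, 9.70 to 10.09 in knockout vehicle arrays, 10.16 to 10.58 in wild-type IL-4 arrays and 9.32 to 9.52 in wild-type vehicle arrays, and the knockout vehicle mean lay 0.54 above the wild-type vehicle mean. Cxcl12, a retention signal for leukocytes and progenitors, changed by 0.04 in the knockout and -0.86 in wild type. Ccl9 changed by 0.32 in the knockout (interval 0.07 to 0.58) and -0.53 in wild type (difference -0.85 ± 0.17, limma adjusted p = 0.00492, or 0.0552 on the linear scale).

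Among cytokines and growth factors that act on muscle cells, 2 of 27 had a positive and 7 a negative difference (33.3%, median -0.03). Il15, which acts on muscle and lymphocytes, changed by 0.05 in the knockout and 0.42 in wild type. Fgf7, a growth factor for epithelium, changed by 0.27 in the knockout (interval 0.07 to 0.48) and -0.46 in wild type, and Bmp4 led the negative ones. For Tgfb3, a transforming growth factor beta ligand, the changes were -0.14 in the knockout (interval -0.21 to -0.08) and 0.10 in wild type (limma adjusted p of the difference = 0.00237). Of 10 insulin-like growth factor binding proteins, 2 were positive and 1 negative (30%, median 0.02). These were Igfbp5 (1.69), Igfbp6 (0.89) and Igfbp4 (-1.08 for its brighter probe). Interleukin-6 (Il6, -0.01) and interleukin-33 (Il33, -0.04) did not pass, with Il6 near the array minimum.

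The lists of mitosis and DNA replication had positive shares far above the 4.75% of all genes. Of 38 measured genes of mitotic kinases, kinetochore and spindle, 25 were positive and 0 negative (65.8% called), with a median change of -0.001 in the knockout and 0.264 in wild type. Prc1 read 9.14, 9.28, 8.98 and 9.01 in knockout IL-4 arrays and 9.28, 9.05, 9.13 and 9.19 in knockout vehicle arrays, against 10.99, 11.06, 11.12 and 10.90 in wild-type IL-4 arrays and 9.48, 9.46, 9.44 and 9.42 in wild-type vehicle arrays. Prc1, which bundles microtubules in the dividing cell's midzone, changed by -0.06 in the knockout and 1.57 in wild type (difference 1.63 ± 0.09, limma adjusted p = 2.1e-08). Cenpa stood at 9.58, 9.52, 9.38 and 9.50 in knockout IL-4 arrays and 9.43, 9.48, 9.40 and 9.56 in knockout vehicle arrays, against 11.17, 11.29, 11.38 and 11.26 in wild-type IL-4 arrays and 9.76, 9.93, 9.87 and 9.86 in wild-type vehicle arrays. Cenpa, the histone that marks centromeres, changed by 0.03 in the knockout and 1.42 in wild type (difference 1.39 ± 0.07, adjusted p = 1.09e-08). For both, only wild-type IL-4 arrays were high, and wild-type vehicle arrays lay above all knockout arrays.

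Genes of DNA replication had the same direction. At the replication fork and in nucleotide supply, 18 of 28 were positive and 1 negative (67.9%, median difference 0.28), and for the replicative helicase and origin licensing 11 of 22 were positive and 1 negative (54.5%, median 0.19). Mcm5 read 8.45, 8.52, 8.49 and 8.45 in knockout IL-4 arrays and 8.52, 8.56, 8.53 and 8.49 in knockout vehicle arrays, against 9.80, 9.73, 9.88 and 9.72 in wild-type IL-4 arrays and 8.74, 8.66, 8.74 and 8.72 in wild-type vehicle arrays. This subunit of the replicative helicase changed by -0.05 in the knockout and 1.07 in wild type (difference 1.12 ± 0.04, limma adjusted p = 4.57e-10). Mcm4 (0.94, 1 of 3 probes), Uhrf1, which maintains DNA methylation (1.06, 1 of 2 probes), and the thymidylate synthase Tyms (0.88, 2 of 5 probes) followed. The exceptions were Rpa3, a subunit of the single-strand binding complex, which changed by 0.16 in the knockout and -0.30 in wild type, and Orc5, an origin recognition subunit, by 0.03 in the knockout and -0.24 in wild type. In the G1 list 7 of 26 were positive and 2 negative (34.6%, median 0.07), with cyclin D1 (Ccnd1, 0.88, 3 of 3 probes) and E2f1 (0.52) positive and the inhibitors Cdkn1c (-1.29) and Cdkn2b (-0.52) negative.

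Start-site regions of Prc1 and Cenpa are given because promoters of mitotic genes are known for CCAAT boxes and for the cell-cycle element TTTGAA. Both are the 250 bases before the RefSeq start on GRCm38.p6, at chr7:80294201-80294450 (+ strand) and chr5:30666636-30666885 (+ strand), with capitals for CCAAT or its reverse complement ATTGG.
Prc1: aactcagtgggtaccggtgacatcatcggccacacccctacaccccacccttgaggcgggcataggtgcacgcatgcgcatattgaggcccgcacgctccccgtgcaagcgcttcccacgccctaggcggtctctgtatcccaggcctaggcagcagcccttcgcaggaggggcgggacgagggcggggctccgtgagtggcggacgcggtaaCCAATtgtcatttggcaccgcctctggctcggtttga
Cenpa: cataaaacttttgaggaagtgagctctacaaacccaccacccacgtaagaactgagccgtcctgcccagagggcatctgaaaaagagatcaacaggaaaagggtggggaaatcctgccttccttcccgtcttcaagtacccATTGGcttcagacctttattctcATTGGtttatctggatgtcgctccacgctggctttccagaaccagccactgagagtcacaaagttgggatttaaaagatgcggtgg
Prc1 had 1 such match, at position -37, and Cenpa 2, at -109 and -86, and neither window held TTTGAA or TTCAAA, its reverse complement. CCAAT on either strand was present in 23 of the 32 mitotic genes with a window (71.9%), in 13 of 25 fork genes (52%), in 11 of 19 helicase genes (57.9%) and in 36% of all 13336 windows. For TTTGAA the shares were 31.2%, 8%, 15.8% and 13.9% in the same order, and for the E2F-like TTTNGCGC, where N is any base, 3.12%, 4%, 15.8% and 1.59%. These 3 motifs were chosen after the expression values were seen, and the shares describe sequence only.

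**Figure D4:**
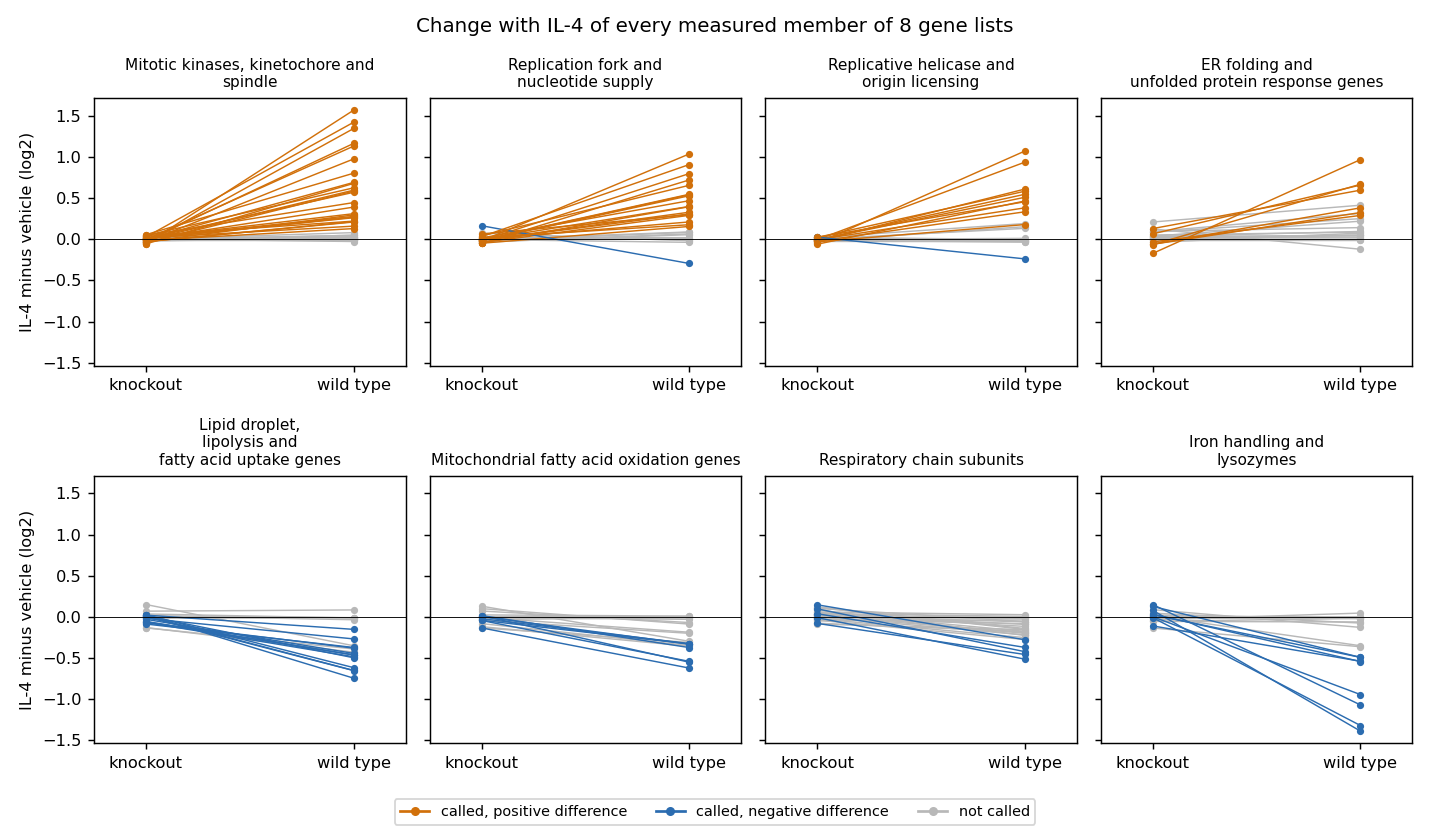
Change with IL-4 in the knockout and in wild type (y axis, log2) for every measured member of 8 gene lists, 1 line per gene. Orange lines passed with a positive and blue lines with a negative difference of changes, and grey lines did not pass. Knockout ends cluster at 0, and the wild-type ends of the 3 cell-cycle lists fan upward and those of the lipid, respiratory and iron lists downward.

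Lipid storage and its oxidation had negative differences. Of 21 measured genes of the lipid droplet, lipolysis and fatty acid uptake, 0 were positive and 13 negative (61.9%, against 5.27% negative of all genes), with a median change of 0.001 in the knockout and -0.39 in wild type. Aqp7 read 9.95, 9.78, 9.86 and 9.96 in knockout IL-4 arrays and 9.91, 9.75, 9.77 and 10.02 in knockout vehicle arrays, against 9.25, 9.22, 9.31 and 9.21 in wild-type IL-4 arrays and 9.95, 9.85, 10.03 and 10.16 in wild-type vehicle arrays. Aqp7, the glycerol channel of adipocytes, changed by 0.02 in the knockout and -0.75 in wild type (difference -0.77 ± 0.10, limma adjusted p = 9.16e-05, 3 of 4 probes), and the wild-type IL-4 arrays alone lay low. The fatty acid binding protein Fabp5 differed by -0.66 (1 of 2 probes). Among enzymes of fatty acid and triglyceride synthesis 0 of 21 were positive and 7 negative (33.3%, median -0.19), and among those of mitochondrial fatty acid oxidation 0 of 20 and 7 (35%, median -0.21). Gpat3 and Dgat2, which act at the first and last steps of triglyceride assembly, differed by -1.13 and -0.72, and Dgat2 was -0.20 in the knockout (interval -0.38 to -0.01) and -0.91 in wild type. Echs1 (-0.57) and Cpt2 (-0.50) act inside mitochondria on fatty acids. Without knockout vehicle arrays 2 and 3 the negative counts were 8 for the lipid droplet list and 4 for oxidation.

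Adipogenic transcription factors and adipokines had 0 positive and 4 negative differences among 18 (22.2%, median -0.08), or 2 negative without those 2 arrays. Cebpa, which drives adipocyte differentiation with Pparg, changed by 0.09 in the knockout and -0.40 in wild type. Adipoq, the adiponectin gene, changed by 0.08 in the knockout and -0.44 in wild type (difference -0.51 ± 0.12, limma adjusted p = 0.0127), a call lost without those arrays (adjusted p = 0.0661). For Pparg the changes were -0.12 in the knockout (interval -0.23 to -0.01) and -0.26 in wild type, and the difference of -0.14 did not pass (adjusted p = 0.344). Respiratory chain subunits had 0 positive and 5 negative of 27 (18.5%, median -0.20), led by Sdhb (-0.52, 1 of 3 probes) and Cyc1 (-0.51). Of 13 cholesterol genes 0 were positive and 1 negative (7.69%, median 0.02), Nsdhl (-0.29, adjusted p = 0.0291), whose call was lost in 9 single-array omissions.

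Of the matrix lists, that of collagen VI and non-fibrillar chains had 2 positive and 1 negative of 6 (50%, median 0.10), with Col6a2 at 1.74 and Col6a1 at 0.76 (3 of 3 probes) and Col8a2 at -0.08 close to the array minimum. Col8a2 changed by 0.05 in the knockout and -0.02 in wild type, and its limma adjusted p of 0.0179 was 0.052 when dim probes were left out and 0.0939 without knockout vehicle arrays 2 and 3, each leaving the list 0 negative. Among fibrillar collagens and their processing enzymes 3 of 23 were positive and 1 negative (17.4%, median 0.09), with Pcolce2 and the procollagen proteinase Bmp1 (1.13 ± 0.12, SE, 4 of 4 probes) positive and the lysyl hydroxylase Plod2 (-0.38, adjusted p = 0.029 in limma, lost in 6 single-array omissions) negative. Col1a1, the main fibrillar chain, differed by 0.15 and did not pass (adjusted p = 0.744). Basement membrane genes had 0 positive and 7 negative of 16 (43.8%, median -0.13), led by Col18a1 and Col4a1 (-0.81 ± 0.11).

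Integrins had 1 positive and 2 negative of 19 (15.8%, median -0.01), namely Itgb5 (0.78), Itga11 (-1.73) and Itgbl1 (-0.24). Small leucine-rich proteoglycans had 1 of each among 12 (16.7%, median 0.00), Prelp (0.86) and Lum (-0.45). Metalloproteinases and their inhibitors had 1 of each among 22 (9.09%, median 0.00), or 0 to 2 positive and 1 to 2 negative when single arrays were left out. Mmp3, the stromelysin, changed by -0.001 in the knockout and -0.86 in wild type, with group means of 11.72 in both knockout groups, 8.96 in wild-type IL-4 arrays and 9.82 in wild-type vehicle arrays, and the call was lost on the linear scale. Timp1 (0.39, limma adjusted p = 0.035) lost its call in 9 single-array omissions. Smooth-muscle-type contractile genes had 3 positive and 0 negative of 18 (16.7%, median 0.00), with Mylk and Smtn (0.42), while Acta2, smooth muscle actin, differed by -0.07 (adjusted p = 0.803).

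For ER folding and the unfolded protein response, 7 of 23 were positive and 0 negative (30.4%, median 0.11). Calr, a calcium-binding chaperone, changed by -0.17 in the knockout and 0.97 in wild type (difference 1.14 ± 0.16, limma adjusted p = 0.000214), and Creld2 differed by 0.73. Of 25 ATF4 targets and amino acid supply genes 4 were positive and 2 negative (24%, median 0.10), or 2 and 0 without knockout vehicle arrays 2 and 3. Slc7a5, a transporter of large amino acids, differed by 0.94 and Psat1, of serine synthesis, by 0.81, and the amino acid transporters Slc38a2 (-0.25) and Slc7a3 (-0.07) were the negative ones. Group means of Slc7a3 were 7.84 to 7.95, not far above the array minimum of 7.72. Its limma adjusted p was 0.0681 and 0.0521 under the 2 filters that left dim probes out.

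Of 18 vasoactive peptides and receptors 1 was positive, Edn1, and 4 negative, led by Kng1 and Agtr1a (27.8%, median -0.01). VEGF ligands, receptors and angiopoietins had 2 positive and 5 negative of 17 (41.2%, median -0.06), with Flt1, a VEGF receptor (1.23, 1 of 2 probes), and Angpt2 (0.36) positive and Angptl7 (-1.28) and Vegfc (-0.57) negative. Serpins had 4 positive and 1 negative of 11 (45.5%, median 0.03), with Serpina3n (1.95), Serpinb1a (1.22) and Serping1 (-0.35). Their vehicle levels differed by 0.73, -0.51 and 0.38 in the same order (knockout minus wild type). The Serping1 call was lost on the linear scale (limma adjusted p = 0.0745), with the array minimum subtracted (0.129) and without knockout vehicle arrays 2 and 3 (0.0503), and the list then had 0 negative. Complement components had 1 positive and 3 negative of 17 (23.5%, median -0.02), with Cfi (0.14), C4b (-0.78) and the complement inhibitor Cd59a (-0.55). Group means of Cfi were 7.83 to 7.99, not far above the array minimum of 7.72.

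Iron handling genes and lysozymes had 0 positive and 8 negative of 20 (40%), with a median change of 0.006 in the knockout and -0.24 in wild type, led by Scara5 and Lyz1. Interferon-stimulated and antigen presentation genes had 0 and 2 of 31 (6.45%, median -0.03), with Gbp2 at -0.91 (1 of 3 probes) and H2-D1 at -0.16. Phagocytic receptors and lysosomal genes had 0 and 2 of 25 (8%, median -0.01), with Gas6, a bridge between dying cells and their receptors, at -0.77 and Scarb1 at -0.11. Group means were 8.01 to 8.15 for H2-D1 and 7.92 to 8.02 for Scarb1, not far above the array minimum of 7.72. Cytosolic ribosomal proteins had 0 and 2 of 15 (13.3%, median -0.03), with Rpl22 at -0.50 and Rpl19 at -0.39. These 3 shares are to be set against the 10.0% of all genes. All 15 ribosomal proteins lay more than 0.5 above the minimum, where 19.4% or more of the probes in each brightness class passed. In the knockout, 0 members of any of the lists passed.

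**Figure D5:**
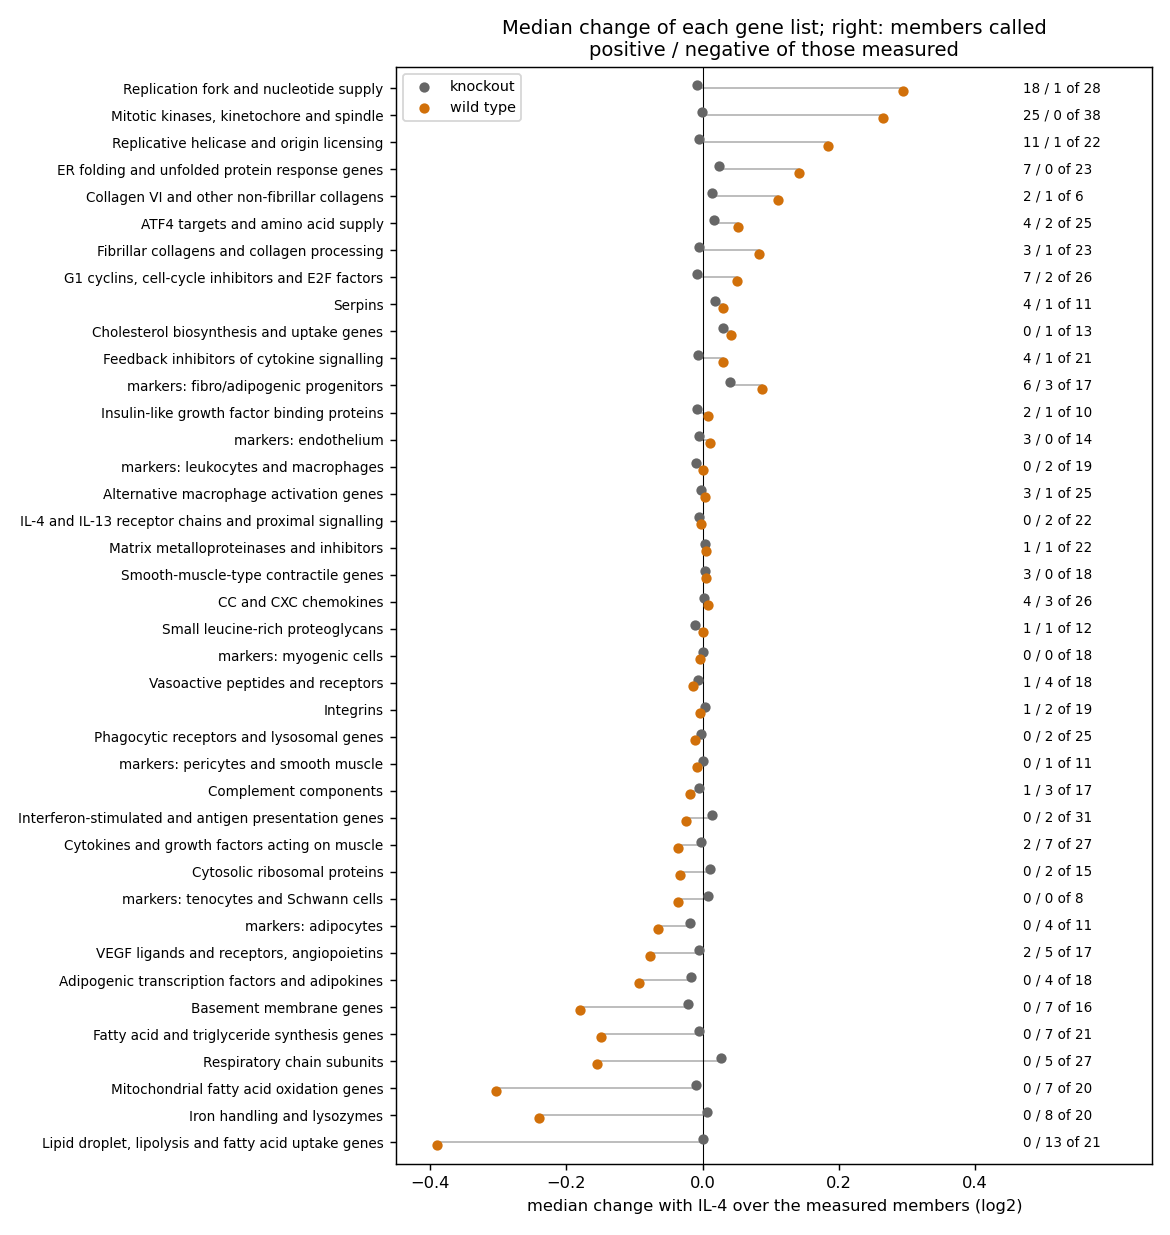
Median change with IL-4 (x axis, log2) over the measured members of each of 40 gene lists, in the knockout (grey) and in wild type (orange), sorted by the median difference of changes. Numbers on the right are the members with a positive and a negative difference past the threshold, of those measured. Knockout medians lie between -0.02 and 0.04 for every list.

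Markers of the cell types a FAP culture could hold were set beside these groups as the sum of values above the array minimum. FAP markers were present, at 28.44 to 29.23 in knockout IL-4 arrays, 27.66 to 28.77 in knockout vehicle arrays, 28.43 to 30.33 in wild-type IL-4 arrays and 26.62 to 27.59 in wild-type vehicle arrays over 17 genes. Of them 6 had a positive and 3 a negative difference (52.9%, median 0.02; 5 negative without knockout vehicle array 4), with Vim (0.75), Cd248 (0.68), Dpt (-0.50) and Twist2 (-0.26). Cd34 differed by 0.14. Pdgfra, the receptor by which FAPs are commonly sorted, read 11.12, 10.76, 10.94 and 10.65 in knockout IL-4 arrays and 10.56, 10.31, 10.34 and 10.69 in knockout vehicle arrays, against 9.88, 10.09, 10.16 and 10.27 in wild-type IL-4 arrays and 10.09, 10.22, 10.28 and 10.08 in wild-type vehicle arrays. Its change was 0.39 in the knockout (interval 0.16 to 0.63) and -0.07 in wild type, and the difference of -0.46 ± 0.16 (SE) had a limma adjusted p of 0.0953, or 0.0219 with a trended and robust variance.

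Adipocyte markers summed to 12.82 to 13.21 in knockout IL-4 arrays, 13.05 to 13.46 in knockout vehicle arrays, 11.14 to 12.19 in wild-type IL-4 arrays and 13.86 to 14.18 in wild-type vehicle arrays, with 0 positive and 4 negative of 11 (36.4%, median -0.05), led by Plin4 (-0.65) and Adipoq. Their sum moved in the same direction as the lipid lists, with which they share genes, and their part in those results was not tested. Leukocyte and macrophage markers summed to 5.74 to 6.45 in knockout IL-4 arrays, 5.69 to 6.38 in knockout vehicle arrays, 3.05 to 3.51 in wild-type IL-4 arrays and 4.93 to 5.25 in wild-type vehicle arrays. Of the 19 genes, 15 or 16 lay within 0.15 of the minimum in each group. Lyz2 and S100a8 (-0.69) were the 2 negative members and 0 were positive (median 0.01, with a share called near that of all genes), and S100a8 was lost on the linear scale (limma adjusted p = 0.0881). Over the 19 genes the median wild-type change was 0, while Lyz2 alone changed by -1.07 in wild type. The sum was lowest in wild-type IL-4 arrays, as were Lyz1, C4b and Ccl9, and its part in those results was not tested.

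Endothelial markers summed to 2.72 to 3.01 in knockout IL-4 arrays, 2.94 to 2.99 in knockout vehicle arrays, 4.53 to 4.81 in wild-type IL-4 arrays and 2.72 to 2.98 in wild-type vehicle arrays, with 9 to 11 of 14 near the minimum. They had 3 positive and 0 negative differences (21.4%, median 0.01), led by Flt1 and Eng (0.41). The Eng call was lost without knockout vehicle arrays 2 and 3 (limma adjusted p = 0.059). Pericyte and smooth muscle markers had 0 positive and 1 negative, Mcam (-0.57), of 11 (9.09%, median -0.02). Their sum was 8.52 to 9.12 in knockout IL-4 arrays and 8.64 to 8.82 in knockout vehicle arrays. In wild type it was 8.61 to 9.08 with IL-4 and 9.28 to 9.66 with vehicle. Myogenic markers had 0 and 0 of 18 (median -0.01), with sums of 1.82 to 2.24 over all arrays and 13 to 15 genes near the minimum. Tenocyte and Schwann cell markers had 0 and 0 of 8 (median -0.04), with 5 near the minimum in each group. Their sum was 3.83 to 4.21 in knockout IL-4 arrays and 3.88 to 4.15 in knockout vehicle arrays. With IL-4 it was 2.50 to 3.33 in wild type, and with vehicle 3.51 to 3.62.

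For 68 of the 2156 passing probes the knockout change was the larger of the pair, 27 with a positive and 41 with a negative difference. Ndufs4 read 9.99, 9.67, 9.92 and 9.69 in knockout IL-4 arrays and 9.45, 9.29, 9.48 and 9.62 in knockout vehicle arrays, against 9.05, 9.06, 9.24 and 9.33 in wild-type IL-4 arrays and 9.56, 9.66, 9.51 and 9.21 in wild-type vehicle arrays. This complex I subunit changed by 0.36 in the knockout (interval 0.13 to 0.58) and -0.32 in wild type (difference -0.67 ± 0.15, limma adjusted p = 0.00885, 1 of 4 probes), and the adjusted p was 0.05 without knockout vehicle arrays 2 and 3. Gna13, a G-protein subunit, changed by -0.28 in the knockout (interval -0.38 to -0.17) and 0.10 in wild type (difference 0.38 ± 0.07, adjusted p = 0.00279). Glg1 (0.48), Ppic (-0.43), Slc25a3 (-0.42) and Scoc (-0.40) had adjusted p-values of 0.0239 to 0.0403, and each lost its call when single arrays were left out. None of the knockout changes of these 6 genes passed on its own.

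Genes that changed in wild type without a difference past the threshold were led by Sfrp1, a Wnt antagonist (0.27 in the knockout and 0.73 in wild type), Pex11a (-0.16 in the knockout and -0.64 in wild type), Car5b (-0.07 in the knockout and -0.63 in wild type) and Plpp3 (-0.25 in the knockout and -0.61 in wild type). The differences of Car5b (limma adjusted p = 0.0979) and Pex11a (0.115) passed under 6 and 4 of the alternatives, with adjusted p-values of 0.0265 and 0.0369 without knockout vehicle arrays 2 and 3. Irs2 read 9.14, 9.35, 9.31 and 9.01 in knockout IL-4 arrays and 9.26, 9.68, 9.92 and 9.24 in knockout vehicle arrays, against 9.01, 8.82, 8.84 and 8.73 in wild-type IL-4 arrays and 9.23, 9.53, 9.50 and 9.50 in wild-type vehicle arrays. Irs2, an adaptor of the insulin and IL-4 receptors, changed by -0.32 in the knockout (interval -0.61 to -0.04) and -0.59 in wild type, a difference of -0.27 ± 0.19 (SE, limma adjusted p = 0.542), and knockout IL-4 and vehicle arrays overlapped. Without knockout vehicle arrays 2 and 3, which read highest, its difference was -0.55 (adjusted p = 0.0263). Slc39a7 changed by 0.19 in the knockout and 0.58 in wild type. A difference that misses the threshold does not show that the genotypes responded alike.

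Detection depended on brightness. Of the 14659 probes with a mean within 0.15 of the array minimum 0.484% passed, against 10.4% of the next 4595 and 19.4%, 27.1%, 28.6% and 30.9% in the brighter classes. Among 4777 genes with more than 1 probe, 661 had a brightest probe that passed. Of their other probes at more than 0.5 above the minimum, 164 of 342 passed as well and 325 had the same sign, whereas in genes whose brightest probe did not pass 90 of 874 such probes did.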

How the data were processed

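Cy3-labelled RNA of plated FAPs was measured on Illumina MouseRef-8 v2.0 bead chips, per the labels. Each probe has 1 deposited value on each array, read here as log2 and normalized by the authors to equal distributions (sorted arrays differ by at most 0.00059). The upstream software, its correction for background, the detection calls and the log base are not given in the sources used here, and log2 was inferred from the range of the deposited values, so folds hold under that reading. All columns of the table were used, and the number of columns not used was 0.

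Probes were named through the platform annotation (23978 with 1 symbol, 0 with several, 1719 with none), of which 23962 matched RefSeq of assembly GRCm38.p6 by Entrez number. A linear model of 4 group means over the 16 arrays was fitted with limma 3.58.1 in R 4.3.3 (12 residual degrees of freedom, empirical Bayes moderation, no filter). Two-sided p-values were adjusted by Benjamini-Hochberg over the 25697 probes, with a threshold of 0.05, and intervals are at 95% before adjustment. The adjusted p-values in the text come from this limma fit unless another setting is named. The number of arrays limits the precision.

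Named genes were the 20 largest positive and negative differences past the threshold, up to 2 members in each direction per list, 6 genes in which the knockout change was the larger, 6 that changed in wild type without a passing difference, and a set of 22 genes of which 20 were measured. In a list the brightest probe stands for a gene, and 781 of 864 entries in 40 lists, 7 of them markers, were measured. The comparison, the lists and the rule were chosen with earlier results of these data known.

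On simulated data for this comparison over 25697 probes the same code recovered 79.1% of differences of 0.25, 95% of those of 0.5 and 100% of those of 1, and called 24 of 76491 unchanged probes. The simulation did not compress changes near the array minimum. Its changed probes were drawn from all probes, of which 57% lay within 0.15 of that minimum. The median SE of a difference was 0.023 there, against 0.062 to 0.094 in the classes more than 0.5 above it. Recovery was not counted by brightness, so these rates do not describe the brighter probes, where small differences are harder to detect. Alternatives were another quantile normalization, median centring, offsets and linear scales, filters on dim probes, other variance models, array weights, stricter thresholds, the replicate number of the knockout arrays as a block, each array left out, and knockout vehicle arrays 2 and 3 left out together. Motif shares were counted with Python 3.11.15, intervals of shares computed with scipy 1.17.1 and figures drawn with matplotlib 3.10.9.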

Additional observations from a re-analysis of the deposited data

Results flagged for a closer look

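Among the genes named, 576 groups of 4 arrays were examined, and in 23 of them 1 array lay far from the other 3 by Dixon's ratio of the gap to the range. Chance gives about 1 in 20 such groups. In the knockout IL-4 group these were Mdk on array 1 (10.67, others 10.69), Cyc1 on array 1 (11.62, others 11.74 to 11.75), Socs1 on array 1 (7.77, others 7.82) and Car5b on array 4 (9.68, others 9.40 to 9.42). Knockout vehicle arrays that stood apart were Daglb on array 2 (9.24, others 8.99 to 9.01), Flt1 on array 2 (7.80, others 7.83 to 7.84), Cfi on array 2 (7.81, others 7.85 to 7.86) and H2-D1 on array 2 (8.16, others 8.04 to 8.06). The rest of that group were Prelp on array 3 (11.59, others 11.81 to 11.85), Scara5 on array 4 (10.00, others 9.68 to 9.73) and Col8a2 on array 4 (7.85, others 7.82). Among wild-type IL-4 arrays they were Ppargc1b on array 5 (9.21, others 8.91 to 8.95), Cfi on array 5 (7.96, others 8.0) and Angpt2 on array 6 (8.25, others 8.33 to 8.35). The rest of that group were Igfbp4 on array 7 (12.45, others 12.62), Bmp1 on array 7 (11.68, others 11.92 to 11.96) and Echs1 on array 8 (10.26, others 10.44 to 10.45). For wild-type vehicle arrays they were Ccl11 on array 1 (10.58, others 11.01 to 11.05), Irs2 on array 1 (9.23, others 9.50 to 9.53) and Jak1 on array 1 (7.88, others 7.98 to 7.99). The rest of that group were Kng1 on array 2 (11.19, others 11.32 to 11.33), Gbp2 on array 2 (10.84, others 10.72 to 10.74) and Uhrf1 on array 3 (8.37, others 8.47 to 8.49).

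The change with IL-4 differed between the genotypes by a test of the difference itself for 2156 probes. Among the 1719 probes without a gene name here 111 passed, a smaller share than the 8.39% of all 25697 probes. Probe ILMN_2725927 had the second largest difference of all, 3.581 ± 0.093 (SE), with 8.93, 8.89, 8.94 and 8.81 in knockout IL-4 arrays, 8.92, 8.74, 8.87 and 8.78 in knockout vehicle arrays, 12.51, 12.77, 12.80 and 12.84 in wild-type IL-4 arrays and 9.01, 9.07, 9.20 and 9.06 in wild-type vehicle arrays. ILMN_2889832, with the fourth largest, differed by 3.160 ± 0.087. The largest negative ones were ILMN_2690603 (-1.173 ± 0.15, with a change of 0.283 in the knockout and -0.890 in wild type) and ILMN_2674351 (-0.805 ± 0.085, with -0.015 in the knockout and -0.820 in wild type).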

How the results depend on the processing

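No named gene that passed in the main fit or in the alternative changed sign between them. Sign changes of genes that passed in neither were not counted. The count of 2156 passing probes (1038 positive, 1118 negative) was 1266 (661 and 605) at an adjusted p of 0.01 and 353 (209 and 144) with a fold of at least 1.5, which leaves 343 probes in wild type. With each array left out in turn it was 1846 to 2236 (915 to 1094 positive, 926 to 1142 negative), the wild-type count 3002 to 3606 and the knockout count 0 to 0. Without knockout vehicle arrays 2 and 3 it was 1746. A trended and robust variance called 1 knockout probe. Over wider probe sets the knockout mean of the score was 0.001 (all probes passing in wild type) and 0.002 (at least 1.5-fold). Only the knockout groups share replicate numbers between treatments, and the main fit did not take the numbers as pairs. Deviations of same-numbered arrays had r = 0.137, 0.052, -0.054 and -0.217, and those of differently numbered arrays had r from -0.219 to 0.297. With 4 arrays per group these values cannot tell whether the numbers mark pairs. With the replicate block for the knockout numbers the counts were 2025 probes (972 and 1053), 3417 in wild type and 0 in the knockout, Stat6 passed (limma adjusted p = 0.0224) and Timp1 did not (0.0564). As a random block they were 2134 (1035 and 1099), 3510 and 0. In single-array omissions the positive integrin count was 2 without knockout vehicle array 3 or wild-type IL-4 array 7, and the negative pericyte count was 2 without knockout vehicle array 3, knockout IL-4 array 4 or wild-type IL-4 array 5. With a trended and robust variance the positive counts were 5 for fibrillar collagens and 5 for contractile genes, and the negative count of FAP markers was 5. On the linear scale 7 of the 143 named probes lost their call (Ccl9, Timp1, Mmp3, Serping1, S100a8, Glg1 and Ppic). Without knockout vehicle arrays 2 and 3, 14 lost it (Pias1, Socs2, Adipoq, Col8a2, Timp1, Slc38a2, Slc7a3, Serping1, Eng, Ndufs4, Glg1, Ppic, Slc25a3 and Scoc) and 3 gained one (Pex11a, Car5b and Irs2). With the array minimum subtracted Pias1, Nsdhl, Plod2, Timp1, Slc38a2, Slc7a3, Serping1, Rpl19, Ppic and Slc25a3 lost it. Brightness limits what can be seen: near the array minimum a true change may be compressed below detection.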
